A study of Cucumis sativus with 8 samples.

Results

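The genes described here are 200 cucumber genes that were high in wild-type (WT) young fruit and low in leaf vein, out of 17783 genes listed. They were chosen on the measured values. Of the genes listed, 1142 averaged under 1 RPM (reads counted on a gene, scaled to a common library total) in the WT vein libraries, and 617 of these were also not at 1 RPM or above in both vein libraries of the RNAi plants. These 617 genes were ranked by the WT fruit mean plus 0.5 over the WT vein mean plus 0.5, and the first 200 were taken. The difference between fruit and vein in WT is therefore what chose them and was given no test. Only young fruit and leaf vein were sequenced, so expression of these genes in other organs is not known from these data.

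All plants were of cucumber (*Cucumis sativus*) inbred line R1461. The study asked what the transcription factor gene *CsIVP* regulates, and sequenced WT plants and plants of 1 transgenic line, R5, that carry a hairpin RNAi construct against *CsIVP* (named CsIND in the sample labels). The tissues were midveins of the youngest expanded leaves and young fruits taken 4 d before anthesis. Each of the 4 groups (WT fruit, RNAi fruit, WT vein and RNAi vein) had 2 libraries described as biological replicates, 8 libraries in all. Every RNAi value comes from the single line R5, and how many plants gave each library is not given in the sources used here.

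A cucumber fruit develops from an inferior ovary, and before anthesis it holds the young carpel wall, the placenta and the ovules. The midvein of an expanded leaf is a mature organ of phloem, xylem and supporting cells. *CsIVP* belongs to the HECATE branch of basic helix-loop-helix (bHLH) transcription factors, whose Arabidopsis members act in the growth of the gynoecium, the female part of the flower.

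Between 18088985 and 22979345 reads per library had been counted on genes, so that 1 read was worth 0.0435 to 0.0553 RPM. A count of 0 allows up to 3 reads, or 0.131 to 0.166 RPM, which covers counting error only. The gene names used for the next sums come from tables of the study that mostly list genes changed in vein. Differences between RNAi and WT vein in these sums were thus partly set by that choice, and nothing is read from them. Among genes annotated with words for photosynthesis, all 24 were detected in every library. Their summed level was 31610 and 34570 RPM in WT vein and 3860 to 5594 RPM in the 4 fruit libraries, but 3178 RPM in RNAi vein replicate 1 and 17980 RPM in RNAi vein replicate 2. The RNAi vein libraries thus stood far apart from each other. The 12 genes annotated with vascular words summed to 166 to 215 RPM in the vein libraries and 96.3 to 114 RPM in the fruit libraries, and all were detected in each. The 6 genes with anther or pollen words, which parts of a flower bud could bring, were also detected in every library, at 541 to 932 RPM in sum in fruit and 153 to 373 RPM in vein. None of these marker genes is among the 200.

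The targeted gene is itself one of the 200, at rank 17. *CsIVP* (Csa6G483450) had 0 reads in all 4 vein libraries. Its fruit level was 49.98 and 38.3 RPM in WT and 42.3 and 52.1 RPM in RNAi plants, so the genotypes overlapped. Its log2 fold change, RNAi over WT, was 0.10 ± 0.21 (standard error, n = 2 libraries per group, adjusted p = 1.00 from limma), and it became negative without RNAi fruit replicate 2 (-0.05) or WT fruit replicate 2 (-0.09). In these 8 libraries the level of *CsIVP* does not separate the genotypes, so it gives no check of the library labels.
The primers of the hairpin are shown because they bear on what a *CsIVP* read can be. The capitals mark the bases that the sense-arm and antisense-arm primers share, 19 in the forward pair and 22 in the reverse pair, and lower case is each primer's own cloning tail.
CsIVP-Sense-F: ggactagtccATCACCTCTCAAACCCTCC
CsIVP-Antisense-F: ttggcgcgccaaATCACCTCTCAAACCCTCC
CsIVP-Sense-R: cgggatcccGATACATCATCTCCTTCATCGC
CsIVP-Antisense-R: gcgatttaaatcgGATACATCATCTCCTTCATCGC
The primer used to clone the gene holds the first 12 of the shared forward bases, here in capitals, from its position 11 on.
CsIVP-clone-F: atggacccccATCACCTCTCAA
Both arms of the hairpin thus carry sequence of *CsIVP* itself. Values per gene cannot tell apart reads of the endogenous transcript and reads of the hairpin transcript. Whether any read came from the hairpin was not tested. The RNAi vein libraries, of the same line, had 0 reads on this gene.

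The members spanned a wide range of levels in WT fruit. Their WT fruit means ran from 2.45 to 311.5 RPM with a median of 8.52 RPM. Of the 200, 9 averaged 100 RPM or more, 69 lay from 10 to under 100 RPM and 122 lay below 10 RPM. In WT vein the highest mean was 0.996 RPM and the median 0.181 RPM. In WT vein 40 members had 0 reads in both libraries, and 18 had 0 reads in all 4 vein libraries, *CsIVP* among them. The summed level of all members was 4353 and 4110 RPM in WT fruit against 47.6 and 57.0 RPM in WT vein, or 0.435% and 0.411% of the fruit libraries. A group of genes that met the rule thus made up a small part of the fruit transcriptome.
The ratio that ranked the genes fell from 414 at the first rank to 5.82 at the last. Just inside the limit, Csa3G081390 (ratio 5.90), Csa3G212490 (5.90) and Csa1G555090 (5.82) averaged 2.45, 5.91 and 6.96 RPM in WT fruit. Just outside it, Csa4G288110 (5.75), Csa4G122800 (5.68) and Csa1G575180 (5.65) were at almost the same ratio, so the end of the list marks no break in the values.

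The main question was what happened to these genes in RNAi fruit, whose libraries took no part in choosing them. As a group they were expressed in RNAi fruit at about the level of WT fruit. Their summed level was 4128 and 4648 RPM in the RNAi libraries against 4353 and 4110 RPM in WT, so that both WT values fell between the RNAi values. In bulk tissue, a lower level in each cell and fewer cells that express a gene cannot be told apart.
For each gene log2(RPM + 0.5) was compared by limma, with p values adjusted over all 17778 genes tested, among which were all 200 members. On this scale the change of a gene with a low level is understated. Calls required both an adjusted p under 0.05 and a difference of 2-fold or more. In this comparison 1 member was called higher and 0 were called lower, against 75 genes (0.422%) called higher and 9 (0.0506%) called lower among all genes tested. The WT fruit libraries that ranked the members are also the reference here, so these calls are not independent of the rule. At an unadjusted p under 0.05 from limma, 9 of the 200 members were higher and 10 of the 200 lower. Of the 17778 genes tested, 848 (4.77%) were higher and 362 (2.04%) lower. On the recovered reads, DESeq2 called 1 member higher and 1 lower, and edgeR's quasi-likelihood test called 0 in either direction.

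**Figure D1:**
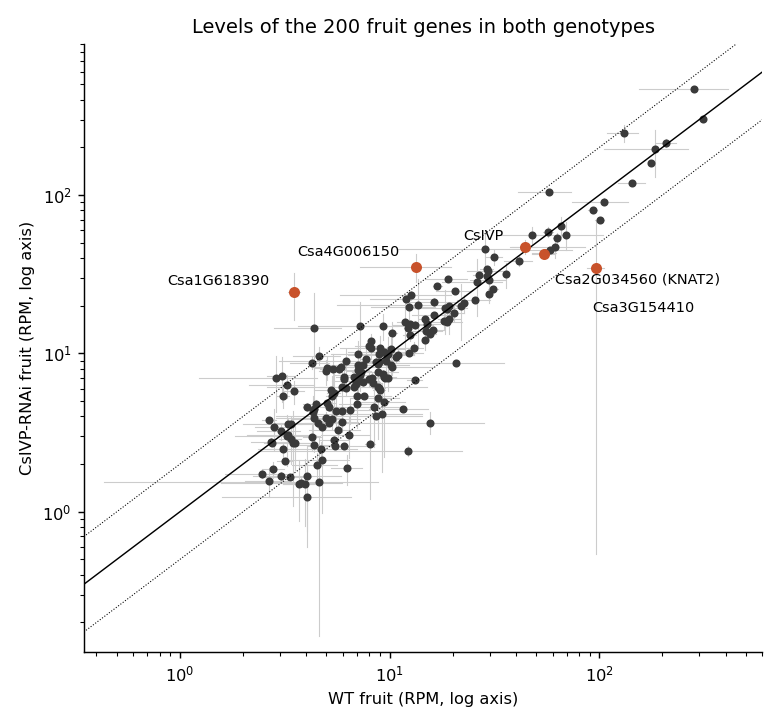
Mean level of each of the 200 genes in WT fruit (x axis) and CsIVP-RNAi fruit (y axis), in RPM on log axes. Grey lines join the 2 libraries of a group, the solid line marks equal levels, the dotted lines mark 2-fold differences, and the 5 genes in orange are named. Most points lie along the solid line, and the grey lines are long for some genes at low and at high levels.

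The single member called was Csa1G618390, at rank 154, which the study's gene lists place under monooxygenase activity, the insertion of an oxygen atom into a substrate. Its level was 3.73 and 3.26 RPM in WT fruit and 16.3 and 32.2 RPM in RNAi fruit, and 0 to 0.217 RPM in the vein libraries. Each RNAi fruit library lay well above each WT fruit library. The log2 fold change was 2.56 ± 0.36 (standard error, n = 2 per group, adjusted p = 0.0490 from limma). The call ended without any 1 of the 4 fruit libraries or of the WT vein libraries (adjusted p 0.132 to 0.366). It also ended with a pseudocount of 0.1 (0.226), a stricter filter (0.0731), TMM factors over all libraries (0.0540), edgeR (0.147) and a replicate block (0.0938), but not with TMM factors within the fruit libraries (0.0486). The log2 fold change stayed between 2.07 and 3.04 and the adjusted p ranged from 4.82e-06 to 0.366 over all alternatives.

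Across all members the changes were centred near those of other genes but were more spread out. The median log2 fold change was -0.07, against -0.01 for all genes tested, and the fold change was below 0 in 115 members (57.5%, against 51.8% of genes tested) and above 0 in 85. The middle of the members ran from -0.36 (25th percentile) to 0.19 (75th percentile), against -0.14 to 0.13 for all genes. Further out, the 5th percentile was -1.07 against -0.45 for all genes, and the 95th was 0.93 against 0.66. A change below 2-fold was seen in 178 members (89.0%, against 96.1% of genes tested), while 8 were at least 2-fold higher and 14 at least 2-fold lower in RNAi fruit. Both RNAi libraries lay above both WT libraries in 36 members (18.0%, against 23.2% of all genes tested) and below them in 50 (25.0%, against 23.4%). For the other 114 the genotypes overlapped. These shares are close to those of all genes.

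**Figure D2:**
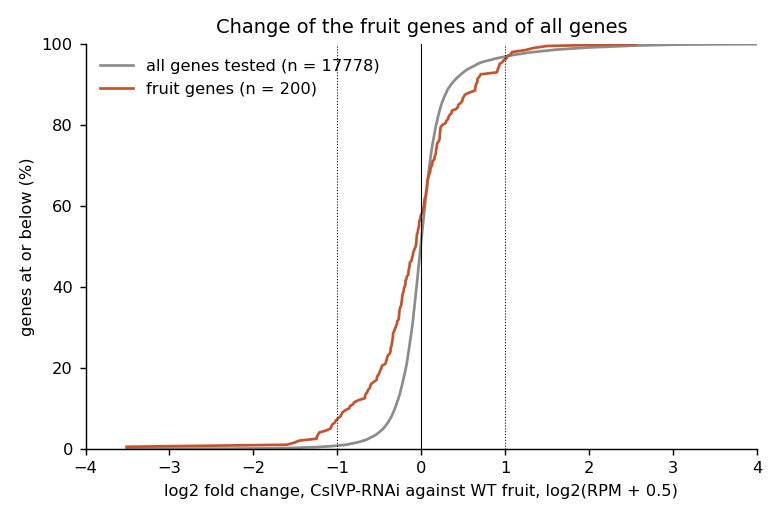
Cumulative share of genes (y axis, %) at or below a log2 fold change of CsIVP-RNAi over WT fruit on the log2(RPM + 0.5) scale (x axis), for the 200 members (orange) and all 17778 genes tested (grey). The orange line rises more gradually on both sides of 0, with medians of -0.07 and -0.01.

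Replicates of the members were also further apart than those of other genes. The WT fruit libraries differed more than 2-fold in 27 members (13.5%, against 1.59% of genes tested) and the RNAi fruit libraries in 18 (9.0%, against 2.36%). Among the 15699 genes tested whose WT fruit mean lay within the range of the members, these shares were 1.17% and 1.59%. Those genes were not matched to the members' levels, and the members had been ranked on the same WT fruit values, so the part of level and of the ranking in this spread was not tested. Single libraries set many of the larger differences. In RNAi fruit replicate 1, 7 members were at least 2-fold below the other 3 fruit libraries (3.5%, against 0.354% of genes tested) and 1 was 2-fold above them (0.5%, against 1.07%). In WT fruit replicate 1, 1 member was below (0.5%, against 0.0844%) and 6 were above (3.0%, against 0.247%). In WT fruit replicate 2, 6 were below (3.0%, against 0.501%) and 4 above (2.0%, against 0.163%). In RNAi fruit replicate 2, 0 were below (against 0.0337%) and 1 was above (0.5%, against 0.219%). As examples chosen after their values were seen, Csa3G119520 was at 22.1 RPM in WT fruit replicate 1 but at 2.35, 2.61 and 2.25 RPM in the other fruit libraries, and Csa5G168960 was at 28.2 RPM there against 2.83, 4.24 and 3.08 RPM. The WT fruit means of these genes, 12.2 and 15.5 RPM, rest on that library.
When the genes were ranked on WT fruit replicate 1 alone, 181 of the 200 were shared, and the median difference of the RNAi fruit mean from the unused replicate 2 was -0.01, against 0.00 for all genes (104 genes lower). When they were ranked on replicate 2 alone, 187 were shared, and the median difference from replicate 1 was -0.05 against -0.02 (109 genes lower). With a WT library that took no part in the choice, the members thus lay slightly closer to all genes.

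The members highest in rank were mostly genes without a name in the sources used here. CsaUNG012530, the first in rank, had 411 and 154 RPM in WT fruit and 468 and 472 RPM in RNAi fruit, so that WT fruit replicate 2 stood apart from the other fruit libraries. Csa6G518270 was at 232 and 186 RPM in WT and 200.3 and 226 RPM in RNAi fruit, and these overlapped. Csa4G126990 was at 182 and 172 RPM in WT and 161 and 159.7 RPM in RNAi fruit.
Both genotypes therefore held these genes at high levels in fruit. In the vein libraries these 3 genes did not exceed 0.221 RPM. Csa3G016920, annotated with inorganic diphosphatase activity (the splitting of pyrophosphate), was at 109 and 154 RPM in WT and 216 and 276 RPM in RNAi fruit. Its log2 fold change of 0.91 ± 0.22 did not pass the test (adjusted p = 0.266 from limma). Csa1G073640, annotated with tyrosinase activity and copper binding (enzymes of this kind oxidise phenols), was at 105 and 265 RPM in WT and 129.7 and 259 RPM in RNAi fruit, with replicates further apart than genotypes. Of the other members in the first 10 ranks, Csa6G095270, Csa5G606780 and Csa5G523090 had log2 fold changes of -0.26, -0.15 and -0.22, and none passed the test. Csa2G381830, the ninth of the members by WT fruit level, was at 95.5 and 106 RPM in WT and 68.0 and 71.6 RPM in RNAi fruit (log2 fold change -0.52 ± 0.19, adjusted p = 0.604 from limma).

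Beside Csa1G618390, the members furthest above WT with libraries that did not overlap were 7 genes with log2 fold changes of 0.93 to 1.5, none past the test. Csa4G006150, annotated with stearoyl-CoA desaturase activity (an enzyme that puts a double bond into a fatty acid), was at 19.6 and 7.22 RPM in WT and 42.6 and 28.2 RPM in RNAi fruit (log2 fold change 1.5 ± 0.50, adjusted p = 0.527 from limma). Csa3G736680, annotated with RNA endonuclease activity, was at 19.6 and 5.83 RPM in WT and 25.0 and 21.7 RPM in RNAi fruit (1.08 ± 0.49). In both genes WT fruit replicate 2 was the library that stood low.
Csa1G039830, annotated with monooxygenase activity and iron binding, was at 15.9 and 8.05 RPM in WT and 23.5 and 20.7 RPM in RNAi fruit (0.93 ± 0.32). Csa3G026160, annotated as a guanyl-nucleotide exchange factor (a protein that switches small GTPases on), was at 41.1 and 73.5 RPM in WT and 101 and 109 RPM in RNAi fruit (0.93 ± 0.36). Csa5G605140, a match of ribonuclease 1, was at 5.14 and 3.35 RPM in WT and 9.52 and 7.95 RPM in RNAi fruit (0.98 ± 0.78). Of these, only Csa3G026160 was above 30 RPM in any library of WT fruit. The other 2 genes, Csa3G151500 (1.07) and Csa6G487520 (1.02), carry no annotation here.

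The 8 members furthest below WT with libraries that did not overlap had log2 fold changes of -0.99 to -3.51, and none passed the test. The largest was that of Csa3G154410, at rank 9. It was at 106 and 87.6 RPM in WT fruit, at 68.5 RPM in RNAi fruit replicate 2 and at 0.544 RPM in RNAi fruit replicate 1, and had 0 reads in the 4 vein libraries. Its log2 fold change of -3.51 ± 1.66 (adjusted p = 0.817 from limma) was thus carried by 1 library: it became -0.49 without RNAi fruit replicate 1 and -6.53 (adjusted p = 0.0132) without RNAi fruit replicate 2.
The replicates were closer for Csa4G629480, at 5.23 and 7.35 RPM in WT and 1.47 and 2.30 RPM in RNAi fruit (-1.52 ± 0.32, adjusted p = 0.185 from limma). DESeq2 called this gene lower (log2 fold change -1.77, adjusted p = 0.0428), and limma did without RNAi vein replicate 1 (0.0329) or 2 (0.0315). Csa3G730160 was at 7.97 and 15.3 RPM in WT and 4.35 and 4.51 RPM in RNAi fruit (-1.23 ± 0.32, adjusted p = 0.301). Neither gene is annotated in the sources used here.
Csa1G032990 was at 7.60 and 8.49 RPM in WT and 1.20 and 4.14 RPM in RNAi fruit (-1.60 ± 0.45). The remaining 4, Csa3G171860 (a match of MLP-like protein 31, of the major latex protein family), Csa4G006070, Csa2G295430 and Csa7G262890, were at 3.09 to 8.01 RPM in WT and 0.816 to 2.62 RPM in RNAi fruit.

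**Figure D3:**
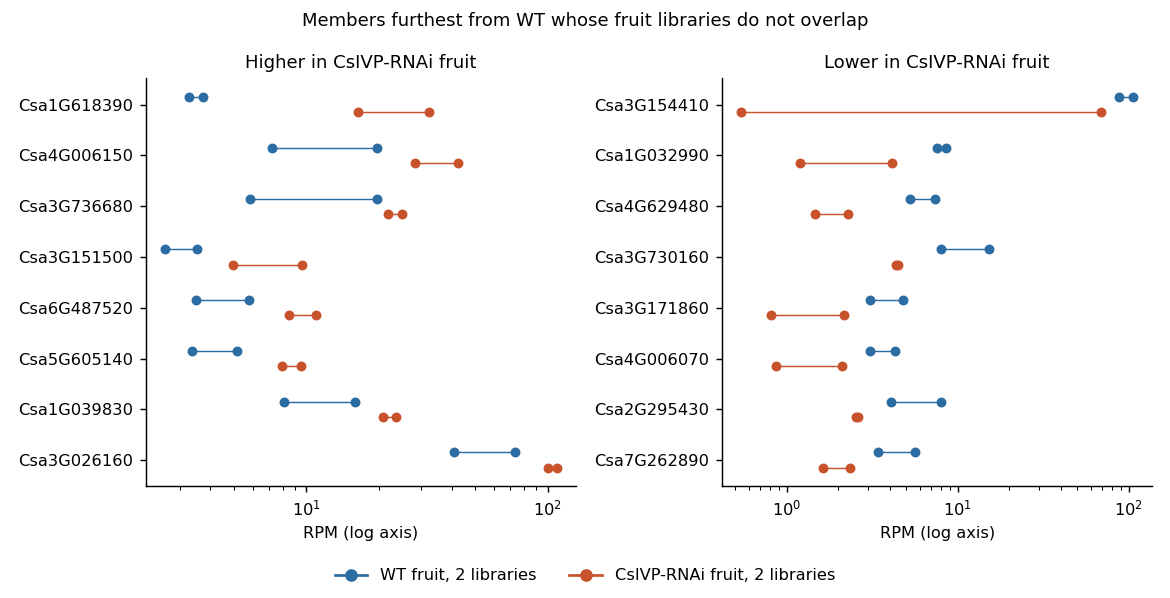
Levels in RPM (x axis, log scale) of the 8 members furthest above WT (left) and the 8 furthest below WT (right) whose fruit libraries did not overlap, with 1 point for each library. In Csa3G154410 the RNAi libraries are at 0.544 and 68.5 RPM, and only Csa1G618390 passed the test.

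Names were held for a minority of the members. An annotation by an Arabidopsis match was held for 32, a gene ontology term for 43 and either of these for 70. The names come from shortened tables of the study that mostly list genes changed in vein, so the named members are not a random part of the 200. Their median log2 fold change in fruit was 0.18, against -0.09 for the 168 members with no such annotation. Words for functions placed 6 named members among transcription factors and floral regulators, 3 in specialised metabolism, 2 in signalling, 1 in transport, and 1 (a lipid-transfer or seed-storage albumin match, Csa3G250900) at once in seed, lipid and inhibitor lists. The lists for anther and pollen, cell wall, hormones, defence, vascular tissue and photosynthesis held 0 of the named members. The words were matched only to the names of the 32, not to gene ontology terms, so members of these kinds can be missed. Csa1G586250, for instance, carries a term for peroxidase activity, and peroxidase is a word of the defence list. None of the members in these lists was called in RNAi fruit.

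Of the 6 transcription factors, 3 had a log2 fold change above 0 and 3 below, with a median of 0.03, against 0.10 for the 205 annotated genes of this list that were tested. Csa2G034560 is a match of KNAT2, a KNOX homeodomain gene that in Arabidopsis is expressed in the shoot meristem and the carpel. It was at 47.8 and 61.4 RPM in WT and 44.4 and 40.4 RPM in RNAi fruit (-0.35 ± 0.20), and at 0.0542 to 0.442 RPM in vein, so that it had the highest fruit level of the 6. Csa6G152350, a bZIP factor, was at 20.9 and 11.8 RPM in WT and 19.96 and 22.5 RPM in RNAi fruit.
Csa3G751470 matches growth-regulating factor 4, of a family that promotes cell proliferation in growing organs. It was at 8.28 and 10.7 RPM in WT and 6.85 and 7.22 RPM in RNAi fruit (-0.40 ± 0.21), with 0 reads in RNAi vein. Csa1G629180, a match of heat shock factor B4, was at 7.97 and 8.31 RPM in WT and 10.7 and 13.2 RPM in RNAi fruit (0.52 ± 0.31). Both pairs of groups were separate, by less than the test required.
Csa5G276460, a homeodomain-like protein, was at 9.56 and 8.36 RPM in WT and 5.22 and 6.58 RPM in RNAi fruit (-0.57 ± 0.58). Csa1G051580, a MADS-box factor whose Arabidopsis match is the floral meristem gene CAULIFLOWER, was at 1.23 and 4.53 RPM in WT and 9.63 and 4.28 RPM in RNAi fruit (1.24 ± 1.07). The replicates of this gene differed more than 2-fold in both genotypes.
Outside the word lists, and chosen after the values were seen, Csa2G349090 matches AT1G12980, an AP2-type factor that promotes shoot regeneration in Arabidopsis. It was at 16.7 and 24.2 RPM in WT and 25.2 and 24.4 RPM in RNAi fruit. Csa3G383760 matches a DUF640 protein, of a family known for boundary regions of organs, and was at 10.8 and 12.8 RPM in WT and 10.4 and 21.0 RPM in RNAi fruit. The 2 further members with a term for transcription factor activity, Csa1G004870 and Csa1G039900, had log2 fold changes of 0.13 and -0.19.

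**Figure D4:**
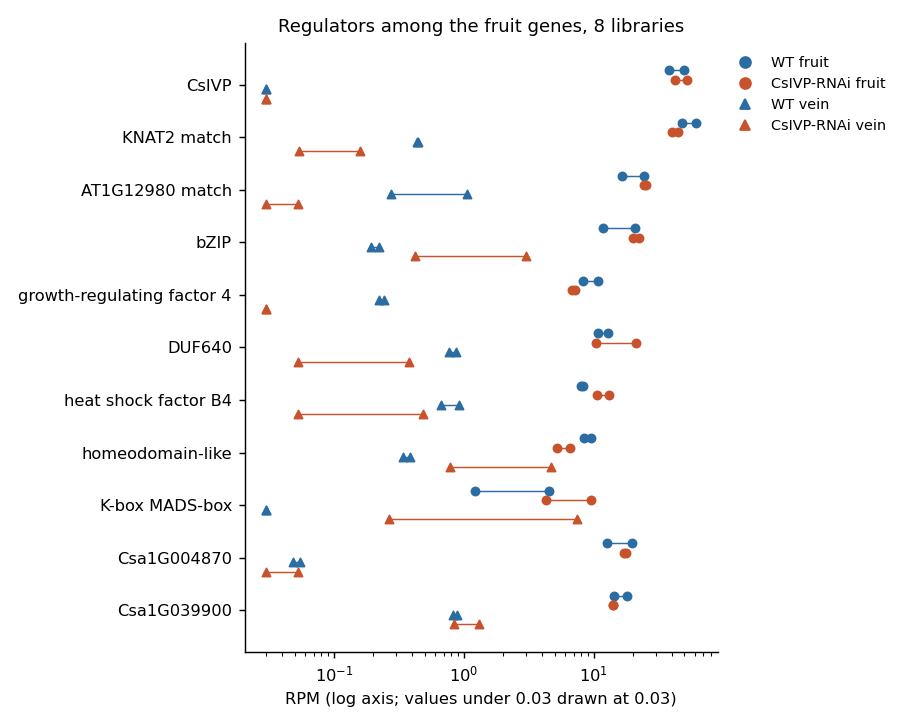
Levels in RPM (x axis, log scale) of 11 regulators among the members in 8 libraries, with circles for fruit, triangles for vein, blue for WT and orange for CsIVP-RNAi, and values of 0 drawn at the left edge. The fruit values of both genotypes lie together for most genes, and the MADS-box and homeodomain-like genes reach 7.43 and 4.67 RPM in 1 RNAi vein library.

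Among enzymes of hormone and lipid metabolism, Csa1G435760 matches a 9-cis-epoxycarotenoid dioxygenase, the enzyme of the committed step of abscisic acid synthesis. It was at 5.23 and 8.83 RPM in WT and 7.94 and 12 RPM in RNAi fruit. Csa1G242600 matches AT4G13260, a flavin monooxygenase of the YUCCA family that makes auxin, and was at 2.28 and 3.35 RPM in WT and 2.45 and 4.46 RPM in RNAi fruit. For both the genotypes overlapped. Csa2G023850 matches lipoxygenase 1, which oxygenates polyunsaturated fatty acids, and was at 12.8 and 12.1 RPM in WT and 14.8 and 15.9 RPM in RNAi fruit (0.29 ± 0.36, adjusted p = 1.00 from limma).
The named transporter stood in the other direction. Csa1G001300, of the MtN3 family of sugar transporters, was at 12.1 and 14.3 RPM in WT and 6.91 and 6.67 RPM in RNAi fruit, with groups that did not overlap. Its log2 fold change was -0.91 ± 0.22 (adjusted p = 0.248 from limma), and the test was passed under none of the alternatives (adjusted p 0.0708 to 1.00). The receptor-like kinases Csa6G515490 and Csa6G515500, which pass signals across the plasma membrane, had log2 fold changes of 0.64 ± 0.53 and 0.69 ± 0.61.
Several members carry identifiers close to each other. There were 14 pairs numbered within 50 of each other, holding 28 members, and 5 of these pairs were 10 apart. They include, as examples picked for their annotation, the receptor-like kinases, the tyrosinase-type genes Csa1G073610 and Csa1G073640, the lipoxygenase 1 match with Csa2G023840, and the MLP-like genes Csa3G171860 and Csa3G171870. The sequences of these pairs were not compared. If some are near-identical copies, reads shared by them may have been lost in counting, which was not tested.

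The fruit-to-vein difference was then measured in the RNAi plants. The RNAi fruit libraries had no part in the rule, but the RNAi vein libraries did, since a member could not be at 1 RPM or above in both. A low RNAi vein level was thus partly fixed by the choice, and the counts that follow are a description. Of the 200 members, 175 (87.5%) passed the call criteria as higher in RNAi fruit than in RNAi vein and 0 as lower. Of all genes tested, which had no such condition, 14.1% and 8.36% did, and nothing is read from the difference. The median log2 difference was 3.21 and the lowest 0.02. In 188 members each RNAi fruit library was above each RNAi vein library (44.1% of genes tested). Ranking on RNAi fruit in place of WT fruit kept 170 of the 200 members (85.0%). Of the 25 members not called, 21 were at 1 RPM or above in 1 RNAi vein library.

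The members were also described in the RNAi vein libraries. The rule held their mean under 1 RPM in WT vein, but let 1 RNAi vein library lie above that. Higher values in RNAi vein than in WT vein were thus partly set by the choice, and nothing is read from that difference. The summed level of the members in RNAi vein was 428 RPM in replicate 1 and 101 RPM in replicate 2, against 47.6 and 57.0 RPM in WT vein. RNAi vein replicates were more than 2-fold apart in 42 members (21.0%, against 14.9% of genes tested). The counts that follow were not made over all genes. At 1 RPM or above were 34 members in replicate 1 only, 26 in replicate 2 only and, by the rule, 0 in both, while 140 were below 1 RPM in each. Of the members at 5 RPM or above in 1 of these libraries and below 1 RPM in the other, 9 were high in replicate 1 and 1 in replicate 2. Beside Csa5G202370 and Csa1G051580, the genes named from here on were chosen after their values were seen.
The highest was Csa5G202370, which was also the member with the highest level in WT fruit. It matches AT2G40080, known in Arabidopsis as EARLY FLOWERING 4, a part of the circadian clock. Its level was 211 RPM in RNAi vein replicate 1 and 0.843 RPM in replicate 2, with 1.11 and 0.771 RPM in WT vein. Its fruit level was 323 and 300.1 RPM in WT and 288 and 312 RPM in RNAi plants, and so hardly differed.
Csa7G073620, a match of cold regulated gene 27, was at 41.0 and 0.369 RPM in RNAi vein and 25.9 to 37.5 RPM in the fruit libraries. Csa7G029980, a match of the blue-light receptor phototropin 2, was at 30.4 and 0.790 RPM in RNAi vein and 23.3 to 35.9 RPM in fruit. The unnamed Csa3G181960 was at 17.7 and 0.0527 RPM in RNAi vein and 23.8 to 35.7 RPM in fruit. In these genes RNAi vein replicate 1 reached the level of fruit or came within 2-fold of the lowest fruit library, and replicate 2 did not.
A CCT motif gene, Csa1G533540, was at 9.71 and 0.0527 RPM, and the MADS-box gene Csa1G051580 was at 7.43 and 0.263 RPM. In the other direction, Csa5G266880, a match of MLP-like protein 43, was at 0.108 and 8.59 RPM in RNAi vein, against 2.23 to 11.8 RPM in fruit. The same replicate was the higher in Csa3G171870, also a match of MLP-like protein 43, at 0.0542 and 4.42 RPM.
Since the libraries of 1 group differed so much for these genes, their spread entered the fit over all groups: the standard error of the fruit comparison was 2.00 for Csa5G202370, although its 4 fruit libraries lay between 288 and 323 RPM. The summed photosynthesis genes were at 3178 RPM in replicate 1 and 17980 RPM in replicate 2, the reverse order of the members' sum. Their part in the result was not tested. With 2 RNAi vein libraries, a level in 1 of them has no replicate.

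**Figure D5:**
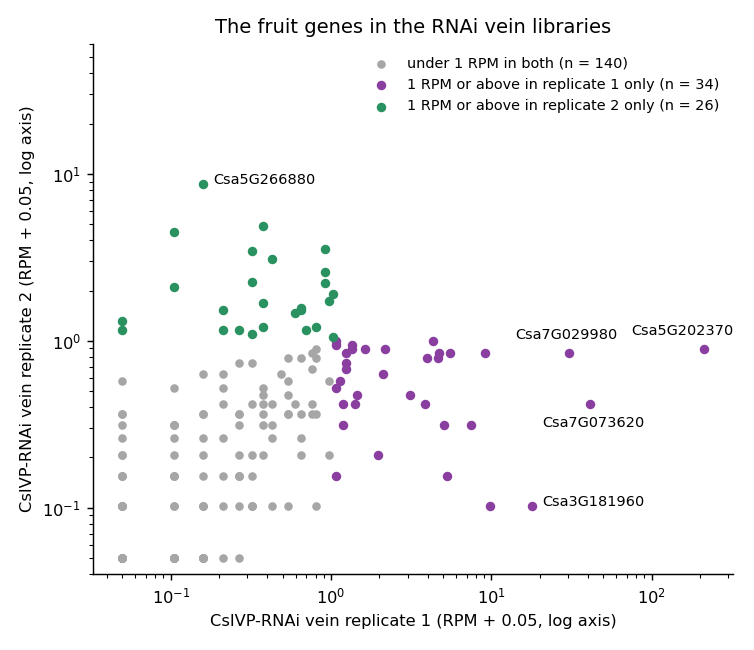
Levels of the 200 members in RNAi vein replicate 1 (x axis) and replicate 2 (y axis), in RPM with a small constant added, on log axes, with 1 point for each gene. The 34 genes at 1 RPM or above in replicate 1 only reach 211 RPM, and the 26 in replicate 2 only reach 8.59 RPM.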

How the data were processed

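RNA was sequenced from 8 libraries, 2 for each of 4 groups. The authors prepared directional libraries, mapped reads longer than 25 bp with TopHat to the cucumber genome (version 2i), used HTSeq-count for the reads of each gene, and deposited these as RPM for 17783 genes. The tool versions and the strand setting of the counting are not given in the sources used here. All values (100%) were whole multiples of 1 read (tolerance 0.05 of a read), which gave back the reads. The values were fitted as log2(RPM + 0.5) with limma 3.58.1 in R 4.3.3 (trended empirical Bayes, two-sided, Benjamini-Hochberg over all genes tested), with 4 group means over 8 libraries (4 residual degrees of freedom). Genes were kept at 1 RPM or more in 2 or more libraries. The fit was also run on simulated counts with the same dispersion for every gene. This was no test of it for the members, whose fruit replicates were further apart than those of other genes. With 2 libraries against 2, the smallest exact permutation p is 0.333 (two-sided). The limma p values rest on the spread within all 4 groups, vein included, moderated by the spread of other genes. Members and word lists were chosen with earlier results of these data known. Members were named by rank, level, call, largest non-overlapping change and annotation words, and genes named as examples of single libraries, of RNAi vein levels, of neighbouring identifiers or of further regulators were chosen outside this rule. The RefSeq gene table matched 0 identifiers, so no coordinates are given. The alternatives were pseudocounts, filters, TMM scaling (edgeR 4.0.16), compared groups only, edgeR and DESeq2 1.42.0 on the recovered reads, a replicate block, leaving out each library, and other ways of ranking. The authors' own fold changes and p values in supplementary tables were not used.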

Additional observations from a re-analysis of the deposited data

How the results depend on the processing

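The number of members called higher in RNAi fruit (1) fell to 0 with a pseudocount of 0.1, the stricter filter (15880 genes), TMM over all libraries, edgeR's quasi-likelihood test and the replicate block, and was 0 to 1 without each library in turn. The number called lower (0) was 1 with DESeq2 and 0 to 1 without each library. Over all genes, 75 were called higher and 9 lower, and these counts became 190 and 28 with the compared groups only, 326 and 36 with DESeq2 and 38 and 6 with the replicate block. Without each library they ran from 0 to 306 and from 0 to 51. The cause was not tested. The median log2 fold change of the members stayed below 0 (-0.16 to -0.02 without each library, -0.13 to -0.04 otherwise). The 175 members called higher in RNAi fruit than in RNAi vein became 160 to 186 without each library and 145 to 177 otherwise. Other rankings that took 200 genes shared 158 to 193 members with the list. The top 100 and the top 400 shared 100 and 200, which their length fixes. Over all these lists the medians were -0.07 to 0.06, of which the value above 0 came from ranking on RNAi fruit. Of 536 values of 30 named members, 517 kept direction and side of the threshold, 11 lost it, 4 gained it and 4 changed sign. Only Csa1G618390 was called in the main fit, so all 11 losses are its own. For the other named members, staying uncalled counted as kept, so the 517 say little about calls. The changes of sign were in *CsIVP*, Csa6G483450 (-0.05 without RNAi fruit replicate 2 and -0.091 without WT fruit replicate 2, in a range of -0.091 to 0.29 without each library), and Csa1G242600 (-0.15 without RNAi fruit replicate 2 and -0.01 without WT fruit replicate 1, in a range of -0.15 to 0.60). The labels do not say whether libraries with the same replicate number belong together. Same-numbered libraries of RNAi and WT fruit correlated in their deviations at 0.143 and those of RNAi fruit and vein at 0.222, over 2 pairs. Those of RNAi and WT vein correlated at -0.112, and the remaining pairs of groups at -0.017 to 0.02. With 2 libraries per group, replicates were more than 2-fold apart in 27 members in WT fruit and in 18 in RNAi fruit. How this spread depends on the level of a member was not tested.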
